A study of Mus musculus with 8 samples.

Results

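The collagen genes are described here across whisker follicles of female ApcMin/+ mice given E7386 or vehicle. A gene was a member if an array probe carried a RefSeq accession whose symbol had the form of Col, a number, the letter a and a number. This found 43 of the 44 such genes in the RefSeq table, among 37018 genes on the array. Each gene was read on its brightest probe over all arrays. Of the 43 genes, 38 passed the filter on dim probes, which kept a gene if 3 or 4 arrays of either group read it well above background, and were tested together with all other genes that passed, 25353 in all.

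The E7386 group had 4 samples from mice dosed by mouth with 30 mg/kg E7386, 2 doses per day, for 4 cycles of 5 days on and 2 days off, starting at 8 weeks of age, with follicles taken 6 h after the last dose. The vehicle group had 4 samples from ApcMin/+ mice given vehicle. All mice carried the Min allele of Apc, which truncates a scaffold of the complex that degrades beta-catenin, so there was no Apc wild-type group. E7386 is known as an oral compound that blocks the interaction of beta-catenin with its coactivator CBP, and the comparison asks what repeated dosing did to expression in a hair-forming tissue. Nothing in the labels ties the samples to different mice. The p-values therefore reflect the spread among these 8 samples alone, which may be technical.

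Collagens are secreted or membrane-bound proteins whose chains wind around one another into a helix built on short repeats that each hold a glycine. The fibrillar types I, II, III, V, XI, XXIV and XXVII assemble into fibrils, the FACIT types sit on fibril surfaces, and type IV builds the sheet of basement membranes, to which types XV and XVIII also belong. Types VII, XVII and XXIII were grouped here as epithelial, since keratinocytes make them to anchor the epidermis and the follicle sheath to the matrix below. In a vibrissa, fibroblasts of the dermal sheath and of the surrounding capsule lay down fibrils, while a basement membrane separates the outer root sheath from this mesenchyme.

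Signals are given on the log2 scale relative to the 75th percentile of their array, which is 0. A signal depends on its probe, and values are therefore compared between arrays for 1 gene and not between genes. All arrays lie on 1 slide with the groups in different rows, so row and treatment cannot be told apart. Between 61.5% and 61.9% of spots were well above background on E7386 arrays and between 62.2% and 64.7% on vehicle arrays. Markers of hair shaft and inner root sheath were present on every array, with list means of 6.75 to 7.11 with E7386 and 6.52 to 7.13 with vehicle over 7 genes. Skeletal muscle markers varied far more, with means of 1.77 to 4.56 with E7386 and 1.51 to 4.46 with vehicle over 10 genes, and were lowest in vehicle replicate 1 and E7386 replicates 1 and 2. In bulk tissue such as this, fewer cells of a type and less RNA per cell cannot be told apart.

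The promoter windows of Col4a1 and Col4a2 are shown because these genes encode the partner chains of the main basement membrane collagen and stand head to head, and both had higher means with E7386. Each window runs from 250 bases before to 50 bases after the RefSeq start in GRCm38.p6, the Col4a1 window on the minus strand at chr8:11312777-11313076 and the Col4a2 window on the plus strand at chr8:11312555-11312854. The windows share 78 bases, which are in capitals in each sequence and read as reverse complements of each other.
Col4a1: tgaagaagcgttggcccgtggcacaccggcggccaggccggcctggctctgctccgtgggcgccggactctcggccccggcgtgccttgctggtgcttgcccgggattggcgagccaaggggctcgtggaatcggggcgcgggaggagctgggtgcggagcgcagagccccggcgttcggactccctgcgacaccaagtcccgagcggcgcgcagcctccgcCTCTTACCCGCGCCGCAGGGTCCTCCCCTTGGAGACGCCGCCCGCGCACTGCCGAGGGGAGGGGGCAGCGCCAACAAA
Col4a2: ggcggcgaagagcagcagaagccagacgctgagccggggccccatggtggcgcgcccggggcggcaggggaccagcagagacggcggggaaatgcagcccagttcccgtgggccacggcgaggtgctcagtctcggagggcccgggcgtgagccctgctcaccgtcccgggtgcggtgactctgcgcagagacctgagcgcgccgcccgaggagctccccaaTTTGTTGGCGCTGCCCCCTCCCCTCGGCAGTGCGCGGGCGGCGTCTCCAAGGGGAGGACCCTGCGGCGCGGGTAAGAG
GC made up 74% of the Col4a1 window and 73.7% of the Col4a2 window. Both hold the CCAAT box, searched as CCAAT on both strands, and the GC box, searched as GGGCGG on both strands. Neither holds the TATA box TATAAA.

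A RefSeq window was at hand for 35 of the 43 collagen genes. The GC box was in the windows of 22 of these 35 genes (62.9%), against 35.7% of 32851 windows of all genes, and CCAAT was in 13 (37.1%), against 37.4%. TATAAA was in 5 (14.3%), among them the windows of Col3a1 and Col17a1, against 13.6%. Of the TCF/LEF motifs, CTTTGAT was in 1 (2.86%) against 3.73%, and CTTTGAA was in 4 (11.4%) against 5.14%, those of Col13a1, Col15a1, Col6a2 and Col9a1. Genes with several windows count once where any window holds the motif, and a match describes letters only.

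Of the collagens, 3 rose with E7386 and 0 fell. The 3 were the basement membrane chains Col4a1 and Col4a4 and the minor fibrillar chain Col5a2, with rises between 1.39-fold and 1.54-fold. They make up 7.89% of the 38 tested, where 1.13% of all tested genes were called in either direction and 0.781% were called higher (4 arrays in each group, limma with Benjamini-Hochberg adjustment at 0.05). The called collagens were 1 of 11 fibrillar, 2 of 8 basement membrane, 0 of 6 FACIT and 0 of 3 epithelial genes tested. At an unadjusted p under 0.05 the counts were 2, 3, 0 and 1. At that looser threshold 10 of the 38 collagens passed, against 3804 of all 25353 tested genes. Over all 38, the median log2 change was -0.09 and 26 (68.4%) had lower means with E7386, against a median of 0.02 and 46.2% lower over all tested genes. Of all 287 called genes 69% were higher, against 55.7% of 244 when arrays were scaled by their medians, and with that scaling the called collagens were Col4a4, which was higher, and Col26a1, which was lower.

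**Figure D1:**
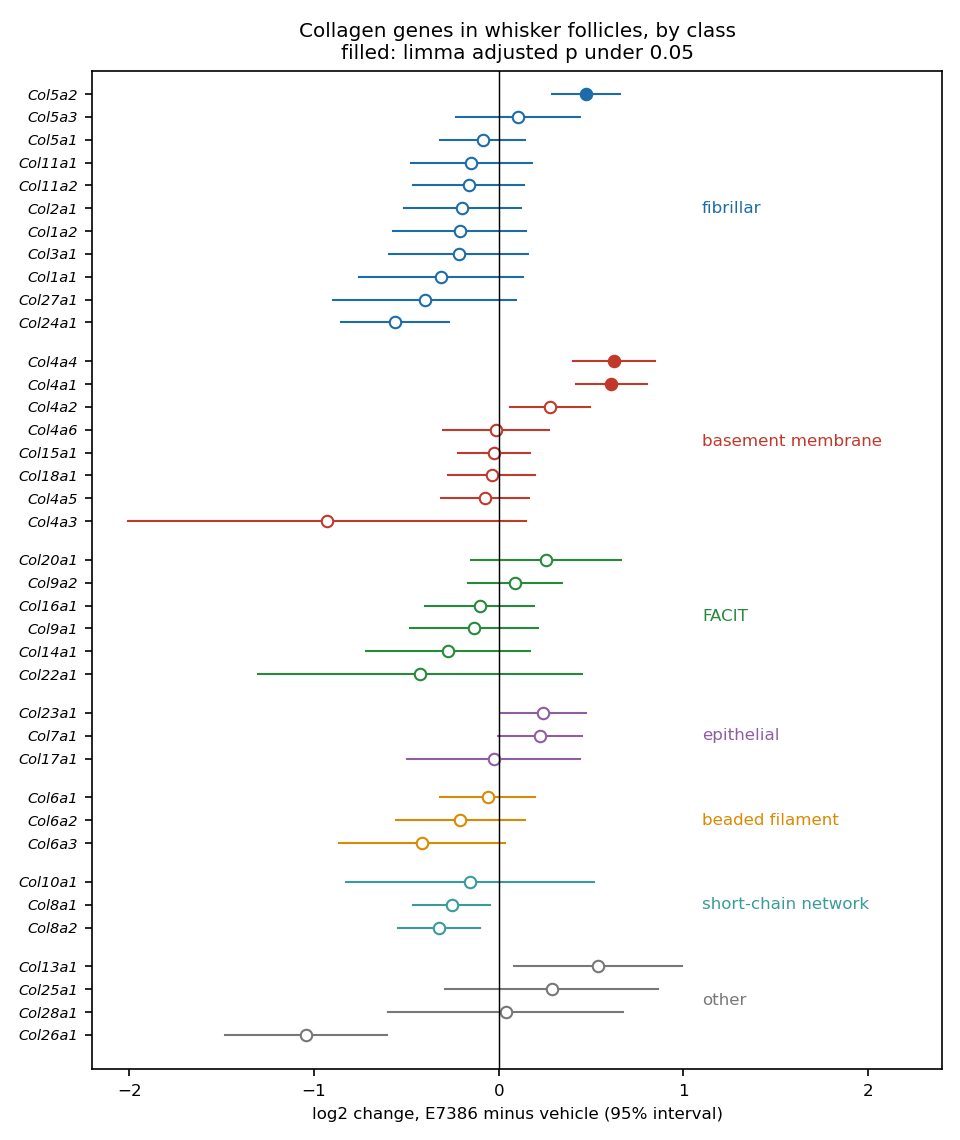
Log2 change of each tested collagen gene, E7386 minus vehicle, with its 95% interval from limma on the x axis, and genes grouped by class down the page. Filled points passed an adjusted p of 0.05, which were Col5a2, Col4a4 and Col4a1, and 26 of the 38 points lie left of 0.

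Among the basement membrane collagens, Col4a1 had the smallest p of all collagens. Its signal was 2.41, 2.16, 2.25 and 2.13 on the E7386 arrays, against 1.62, 1.66, 1.67 and 1.54 on the vehicle arrays. Each E7386 array lay above each vehicle array. The rise was 0.61 on the log2 scale (SE 0.08, adjusted p = 0.0181, limma), or 1.53-fold. Col4a1 encodes a chain of the type IV molecule that is found in nearly every basement membrane, of vessels, nerves, muscle and epithelium alike.

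Col4a2, which encodes the partner chain of that molecule, had 2.37, 2.23, 2.19 and 2.02 with E7386, against 1.91, 1.97, 2.03 and 1.81 with vehicle. The groups overlapped slightly, since E7386 replicate 4 lay just under vehicle replicate 3. The log2 change of 0.28 (SE 0.09, 95% interval 0.06 to 0.49) did not pass the threshold (adjusted p = 0.227, limma). Within each array the Col4a1 signal minus the Col4a2 signal lay between -0.08 and 0.10 with E7386 and between -0.36 and -0.27 with vehicle. This difference is read only for its shift of 0.33 between groups, which did not overlap.

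Col4a4, a chain of the type IV molecule best known from the kidney filter, had -1.99, -1.84, -1.64 and -1.78 with E7386, against -2.56, -2.47, -2.36 and -2.34 with vehicle. Again every E7386 array was above every vehicle array. The rise was 0.62 (SE 0.10, adjusted p = 0.0273, limma), or 1.54-fold. It rests on 1 of 3 probes, as a second probe that was also well above background on all arrays changed by 0.10, and with probes averaged the change was 0.24 (adjusted p = 0.362). Col4a3, its neighbour and partner chain, cleared background on 0 of 4 E7386 arrays and 3 of 4 vehicle arrays. Its signal was -6.61, -5.37, -7.50 and -5.89 with E7386, against -5.97, -5.37, -5.67 and -4.65 with vehicle, and no fold is given for a gene this dim (adjusted p = 0.402, limma).

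The remaining basement membrane genes had changes close to 0. Col4a5 changed by -0.08 and Col4a6 by -0.01, the chains of the molecule found in epidermal and follicular basement membrane. Col15a1, the multiplexin of muscle and capillary basement membranes, changed by -0.03. Col18a1, the source of the fragment endostatin, changed by -0.04. The 95% intervals of these genes lie between -0.32 and 0.27. Other probes of Col15a1 gave -0.29 and -0.39, and the other probe of Col4a6 gave 0.08. With Col15a1 and Col18a1 included, the class median was -0.02, and it was 0.13 over the 6 type IV chains.

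Both calls were lost when certain single arrays were left out. Col4a1 kept its call without E7386 replicate 1, 2 or 4 and lost it without E7386 replicate 3 or any vehicle array, at adjusted p of 0.0513 to 0.0764 with changes of 0.58 to 0.62. Col4a4 kept its call only without E7386 replicate 1, with adjusted p of 0.0532 to 0.0959 in the other 7 fits. Without vehicle replicate 1 and E7386 replicates 1 and 2, the arrays with the lowest muscle signal, the changes were 0.56 for Col4a1 (adjusted p = 0.146) and 0.68 for Col4a4 (adjusted p = 0.116). Endothelial markers had list means of 1.01 to 1.16 with E7386 and 0.89 to 1.24 with vehicle over 7 genes, 0 of them called. Of these genes 4 had lower and 3 higher means with E7386, with a median change of -0.16. Pericyte and smooth muscle markers had 0.45 to 1.09 with E7386 and 0.35 to 1.20 with vehicle over 6 genes, 0 of them called. In this list 5 genes had lower means and 1 a higher mean with E7386, with a median change of -0.09. Des, which is part of the pericyte and smooth muscle list means, was at -1.75 to -0.67 on the arrays with the lowest muscle signal and at 0.64 to 1.43 on the others. Acta2, the smooth muscle actin, was counted with the dermal papilla and sheath markers instead, and it fell by 0.68 (adjusted p = 0.0248, limma). Schwann cell markers had higher means with E7386 in 6 of 6 genes, with list means of 1.58 to 2.13 with E7386 and 1.47 to 1.76 with vehicle, a median change of 0.15 and 0 called. Fat markers had higher means in 6 of 7, with list means of -0.83 to 0.81 with E7386 and -1.66 to -0.02 with vehicle, a median change of 0.38 and 0 called. Plin4 of this list, a lipid droplet protein, changed by 1.56 with separate groups (adjusted p = 0.108, limma). The part of these lists in the rise of Col4a1 was not tested.

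**Figure D2:**
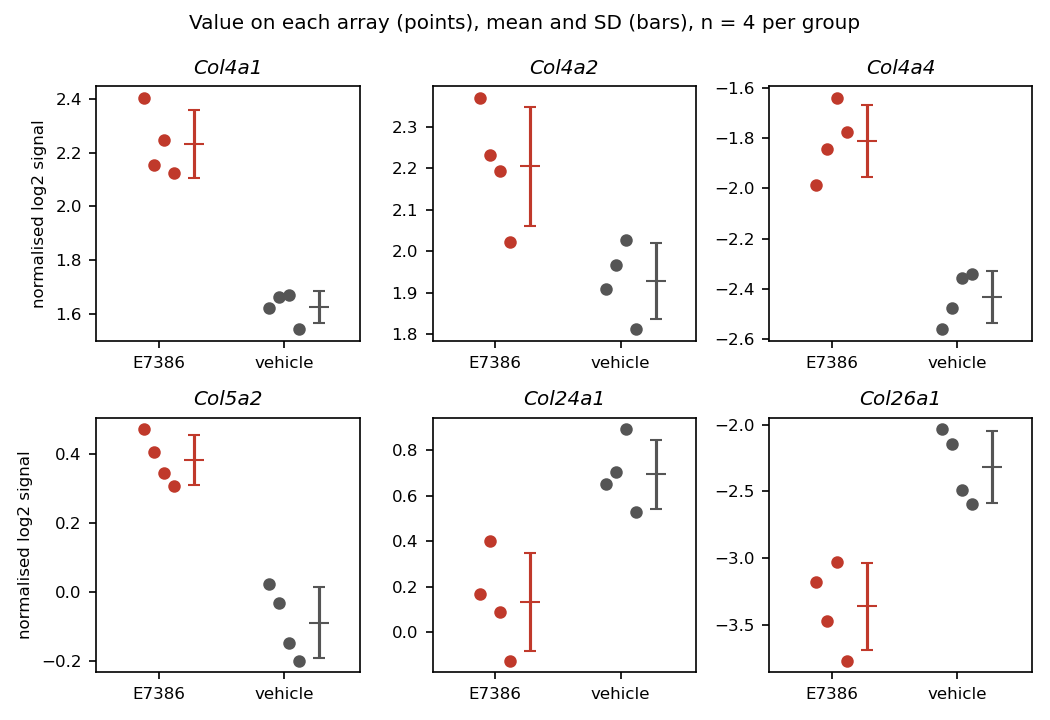
Normalised log2 signal (y axis) of 6 collagen genes on each array, E7386 left and vehicle right, with the mean and SD of the 4 arrays beside the points. The groups do not overlap for Col4a1, Col4a4, Col5a2, Col24a1 and Col26a1, and for Col4a2 they overlap slightly.

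The fibrillar collagens showed 1 rise against a background of slightly lower means, since 9 of the 11 had lower means with E7386 and the class median was -0.20. Col5a2 was the one that rose. It encodes a chain of type V collagen, which co-assembles with type I and limits the width of its fibrils. The signal was 0.47, 0.41, 0.35 and 0.31 with E7386, against 0.02, -0.03, -0.15 and -0.20 with vehicle. The groups lay well apart, and the rise was 0.47 (SE 0.08, adjusted p = 0.038, limma), or 1.39-fold. With any 1 of the 8 arrays removed the call was lost, with adjusted p of 0.0592 to 0.118 and changes of 0.44 to 0.51.

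The other type V chains had smaller changes. Col5a1, with which Col5a2 forms the common type V molecule, differed by -0.09 (95% interval -0.32 to 0.14), and Col5a3 by 0.11 (-0.23 to 0.44). Within each array the Col5a2 signal minus the Col5a1 signal shifted by 0.56 between groups. It lay between -1.01 and -0.87 with E7386 and between -1.77 and -1.25 with vehicle, without overlap. Col3a1, the neighbour of Col5a2 on the chromosome, encodes type III collagen of stretchable tissue. It had 4.34, 4.08, 3.86 and 3.85 with E7386, against 4.20, 4.40, 4.50 and 3.89 with vehicle. Its groups overlapped, with a change of -0.22 (SE 0.16, adjusted p = 0.584, limma), and Col5a2 minus Col3a1 shifted by 0.69, again without overlap.

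Type I collagen, the bulk of dermal fibrils, had lower means with E7386, and neither chain passed the test. Col1a1 had 6.26, 6.36, 5.87 and 5.97 with E7386, against 6.61, 6.76, 6.41 and 5.93 with vehicle. Its change was -0.31 (SE 0.19, 95% interval -0.76 to 0.13, adjusted p = 0.497, limma). Vehicle replicate 4 lay among the E7386 arrays and the other 3 vehicle arrays above them. Col1a2, the second chain of the type I molecule, had 7.59, 7.83, 7.50 and 7.55 with E7386, against 7.93, 8.06, 7.93 and 7.38 with vehicle. Here vehicle replicate 4 was the lowest of all 8 arrays and the other 3 vehicle arrays were the highest, with a change of -0.21 (SE 0.16, adjusted p = 0.577, limma).

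Col24a1, a fibrillar chain known from bone and cornea, had the lowest change of the class. Its signal was 0.17, 0.40, 0.09 and -0.13 with E7386, against 0.65, 0.70, 0.89 and 0.53 with vehicle. The groups did not overlap, but the change of -0.56 (SE 0.13) did not pass (adjusted p = 0.0923, limma), and it passed in 0 of 21 alternatives, with adjusted p of 0.0608 to 0.252. Col27a1, a fibrillar chain of cartilage, had -3.60, -2.95, -3.21 and -3.62 with E7386, against -3.39, -3.07, -2.75 and -2.57 with vehicle. Its groups overlapped, with a change of -0.40 (SE 0.22, adjusted p = 0.433, limma). The other cartilage-type chains were closer to 0, with -0.20 for Col2a1, -0.15 for Col11a1 and -0.16 for Col11a2, and none had separate groups. Bone markers, 4 of 6 tested and 0 called, had list means of -3.83 to -3.53 with E7386 and -3.61 to -3.18 with vehicle, and their part in the values of Col24a1 was not tested.

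In the vehicle group, 8 of the 11 fibrillar chains and all 3 tested type VI chains had their lowest value on vehicle replicate 4. Of the fibrillar chains 6 had their lowest E7386 value on E7386 replicate 4. Without vehicle replicate 4, 12 collagens in place of 6 had groups that did not overlap, of which 9 were lower and 3 higher with E7386, and 0 were called. That is 31.6% of the 38, against 16.3% of all tested genes when 4 arrays were set against 3. Since that array was singled out for its low collagen values, its removal favours separate groups with lower E7386 values. The 16.3% does not allow for this choice. Leaving out any other single array gave 6 to 8 collagens with separate groups. Without the 3 arrays of lowest muscle signal, which sets 2 E7386 arrays against 3 vehicle arrays, 16 collagens (42.1%) had separate groups, against 36% of all tested genes. Fibroblast markers had list means of 3.16 to 3.51 with E7386 and 3.28 to 3.49 with vehicle over 8 genes. The mean on vehicle replicate 4 was 3.40. Of this list, Lum (2.42) and Thy1 (4.72) had their lowest vehicle value on vehicle replicate 4, and the other members did not. The part of these markers in the collagen values of that array was not tested.

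**Figure D3:**
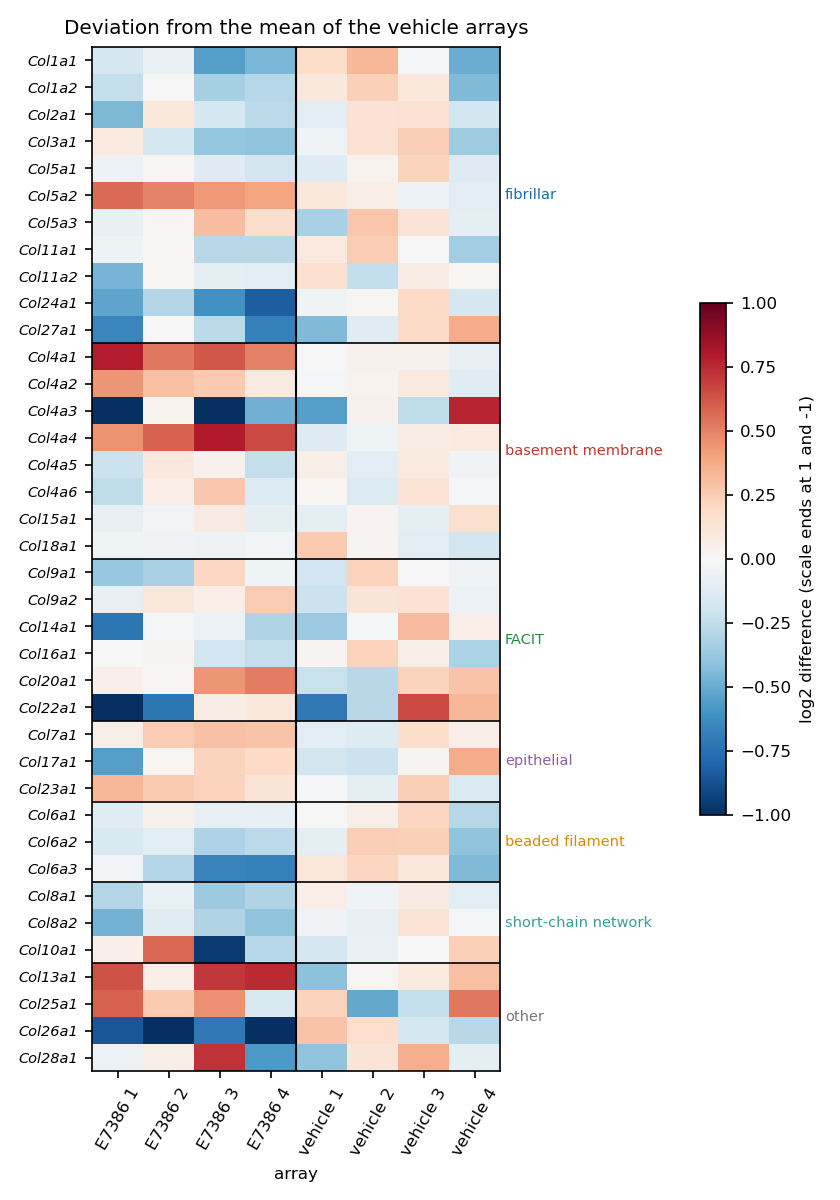
Difference of each array (columns, E7386 left of the line, vehicle right) from the mean of the vehicle arrays for the 38 tested collagens (rows, by class), in log2 units with colours ending at 1 and -1. Col5a2, Col4a1 and Col4a4 are red across all E7386 arrays and Col24a1 and Col26a1 blue. Other rows also lie above the vehicle mean on all E7386 arrays, such as Col4a2 and Col7a1, or below it, such as Col8a2 and Col1a1. Vehicle replicate 4 is the lowest of its group in 8 of the 11 fibrillar rows.

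The FACIT collagens, which bind to the surface of fibrils, held 0 called genes, and their median change was -0.12 over the 6 tested. Col14a1, which coats type I fibrils in skin and tendon, had -0.19, 0.50, 0.47 and 0.22 with E7386, against 0.15, 0.51, 0.84 and 0.59 with vehicle. The groups overlapped, with a change of -0.27 (SE 0.19, adjusted p = 0.558, limma), and its other probe gave -0.01. Col20a1 had -2.74, -2.77, -2.36 and -2.28 with E7386, against -3.02, -3.07, -2.57 and -2.51 with vehicle, a change of 0.26 (SE 0.18, adjusted p = 0.549, limma) within the spread. Its other probe gave 0.35.

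Col22a1, a collagen of the junction between muscle and tendon, varied more within the groups than between them. It had -2.54, -2.11, -1.31 and -1.28 with E7386, against -2.10, -1.66, -0.72 and -1.05 with vehicle. The low arrays were E7386 replicates 1 and 2 and vehicle replicates 1 and 2, and the first 2 of these and vehicle replicate 1 are also the arrays with the lowest muscle markers, whose part in these values was not tested. The change of -0.43 had a wide error (SE 0.38, adjusted p = 0.653, limma). Col16a1, found near the dermal-epidermal border, changed by -0.10, Col9a2 by 0.09 and Col9a1 by -0.13, the last clearing background on 2 of 4 arrays with E7386 and 4 of 4 with vehicle.

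The epithelial collagens also held 0 called genes, with a median change of 0.22 over 3. Col7a1 forms the anchoring fibrils under the epidermal basement membrane. It had 2.86, 3.05, 3.09 and 3.08 with E7386, against 2.69, 2.67, 2.97 and 2.87 with vehicle, a change of 0.22 (SE 0.10, adjusted p = 0.338, limma). Vehicle replicates 3 and 4 lay within the E7386 range. Col17a1, the transmembrane collagen of hemidesmosomes that also marks follicle stem cells, had 2.55, 3.12, 3.33 and 3.30 with E7386, against 2.92, 2.88, 3.13 and 3.47 with vehicle. Its groups overlapped, with a change of -0.03 (SE 0.20, 95% interval -0.49 to 0.44, adjusted p = 0.971, limma).

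Col23a1, a transmembrane collagen that binds integrin on keratinocytes, had -0.03, -0.10, -0.13 and -0.23 with E7386, against -0.37, -0.45, -0.12 and -0.50 with vehicle. All but vehicle replicate 3 lay below the E7386 arrays, and the change of 0.24 (SE 0.10, 95% interval 0.01 to 0.47) did not pass (adjusted p = 0.315, limma). Its other probes gave 0.18 and 0.12. Basal keratinocyte markers, 6 tested and 0 called, had list means of 5.62 to 5.83 with E7386 and 5.64 to 5.84 with vehicle.

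Type VI collagen forms beaded microfibrils around cells, and its 3 main chains had lower means with E7386 without a call. Col6a3, the largest chain, had 3.30, 3.04, 2.66 and 2.65 with E7386, against 3.45, 3.54, 3.44 and 2.89 with vehicle, a change of -0.42 (SE 0.20, adjusted p = 0.371, limma). Vehicle replicate 4 lay among the E7386 arrays. Col6a2 had 1.41, 1.44, 1.25 and 1.29 with E7386, against 1.47, 1.80, 1.80 and 1.15 with vehicle, a change of -0.21 (SE 0.15, adjusted p = 0.57, limma). Col6a1, its neighbour and partner, had 4.18, 4.35, 4.22 and 4.22 with E7386, against 4.31, 4.36, 4.52 and 4.02 with vehicle, a change of -0.06 (SE 0.11, adjusted p = 0.858, limma). The groups overlapped for both of these chains. Col6a4, Col6a5 and Col6a6, which can replace Col6a3 in the molecule, were too dim to test, with 1 of 8 arrays well above background for Col6a4 and 0 for the others.

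Of the remaining genes, Col26a1 had the lowest change of any collagen. Its signal was -3.17, -3.47, -3.03 and -3.77 with E7386, against -2.03, -2.15, -2.49 and -2.59 with vehicle. The groups lay apart and the probe was well above background on all 8 arrays, but the change of -1.04 (SE 0.19, 95% interval -1.48 to -0.60) did not pass (adjusted p = 0.0501, limma). It passed in 5 of 21 alternatives, none of them among the 8 with an array removed, and with normexp on median signals its change was -0.48 (adjusted p = 0.045). Dermal papilla and sheath markers, 8 of 9 tested, had list means of -0.39 to 0.08 with E7386 and 0.08 to 0.25 with vehicle. Of these 8 markers 6 had lower and 2 higher means with E7386. The 2 higher ones were Prom1, a surface marker of the dermal papilla, and Bmp4, a signal of the papilla. Prom1 changed by 0.47 with separate groups (adjusted p = 0.0668, limma), and Bmp4 by 0.26 (adjusted p = 0.307, limma). Among the lower ones, Rspo3 changed by -1.19 with overlap (adjusted p = 0.213, limma). Corin changed by -1.35 with overlap (adjusted p = 0.348, limma), and it cleared background on 1 of 4 E7386 arrays. Acta2, the smooth muscle actin of the dermal sheath, had 2.67, 2.46, 2.51 and 2.27 with E7386, against 3.24, 3.23, 3.14 and 3.02 with vehicle. It fell by 0.68 (SE 0.10, adjusted p = 0.0248, limma), a call that held in 2 of the 8 fits with an array removed, with adjusted p of 0.0659 to 0.0905 in the others. The part of these markers in the values of Col26a1 and Col24a1 was not tested.

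Type VIII collagen is a short-chain network of vessel walls and of the membrane under corneal endothelium. Col8a2 had 1.59, 1.94, 1.76 and 1.66 with E7386, against 2.03, 1.99, 2.20 and 2.04 with vehicle, a change of -0.32 (SE 0.10, adjusted p = 0.176, limma) with separate groups. Col8a1 was lower by a similar amount, at -0.26 (SE 0.09, adjusted p = 0.239, limma), with overlap. Col10a1, the collagen of hypertrophic cartilage, was at -0.16, Col13a1, a transmembrane collagen of cell adhesions, at 0.54 (SE 0.20, adjusted p = 0.258, limma), Col25a1 at 0.29 and Col28a1 at 0.04. These were dim, and Col10a1 and Col28a1 were well above background on 3 of 4 E7386 and 4 of 4 vehicle arrays, Col13a1 on 4 and 3, and Col25a1 on 3 and 3. The FACIT genes Col9a3 and Col19a1 were not tested, being well above background on 2 and 0 of the E7386 arrays and on 1 and 1 of the vehicle arrays. Col12a1 had no probe by this rule and was not analysed here.

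The groups of arrays did not overlap for 6 of the 38 tested collagens (15.8%), against 10.4% of all tested genes. Of these, Col4a1, Col4a4 and Col5a2 were higher with E7386, against 5.13% of all genes, and Col24a1, Col26a1 and Col8a2 were lower, against 5.25%. Within-array differences were compared for 7 pairs of partner or neighbouring chains, which were chosen with earlier results known. In 3 pairs the groups did not overlap, and each of these holds Col4a1 or Col5a2. Both genes had separate groups by themselves, so the separation of these pairs is not separate support. The share of other gene pairs that separate was not computed. In the other 4 pairs, Col4a5 and Col4a6, Col1a1 and Col1a2, Col6a1 and Col6a2, and Col8a1 and Col8a2, the shifts were -0.06, -0.10, 0.15 and 0.07 with overlap.

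**Figure D4:**
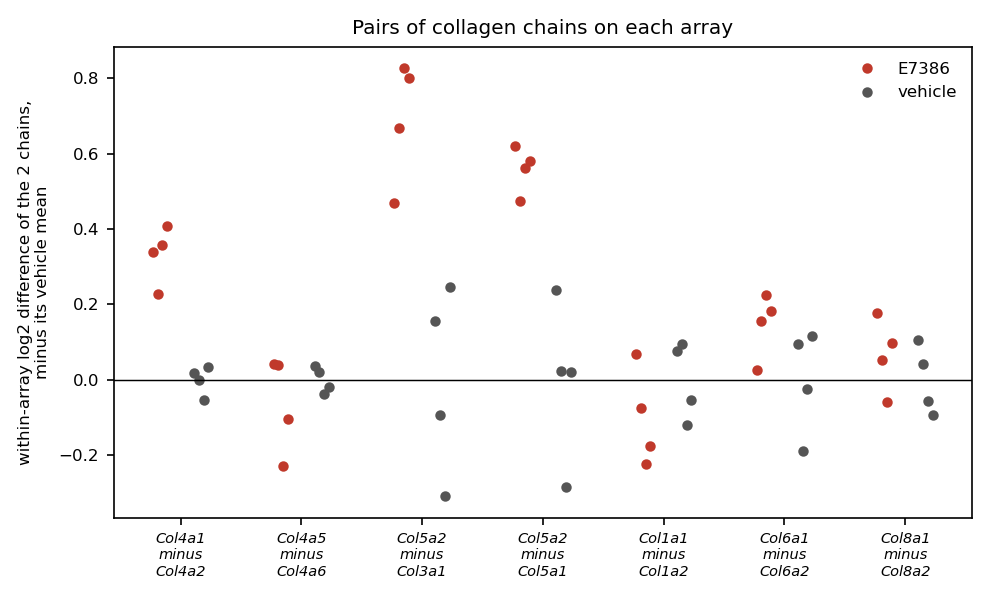
Within-array log2 difference between the signals of 2 collagen chains, minus its mean over the vehicle arrays (y axis), for 7 pairs (x axis), E7386 arrays left and vehicle arrays right in each pair. The pairs with Col4a1 or Col5a2 are shifted by 0.33 to 0.69, and the other 4 pairs overlap.

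Of the 55 tested genes that make, process or bind collagen, 1 was called, Lox. That is 1.82%, near the 1.13% of all tested genes. Of 20 tested genes for synthesis and folding, 0 were called, with a median change of -0.08 and 14 lower means. Serpinh1, the collagen chaperone HSP47, had 2.84, 2.83, 2.80 and 2.76 with E7386, against 3.10, 3.15, 3.20 and 3.13 with vehicle. The spread was narrow and the groups lay apart, but the change of -0.34 (SE 0.06) did not pass (adjusted p = 0.0516, limma), and it passed in 4 of 21 alternatives. The next members were Sec23a, a coat protein of export vesicles, at -0.21, P4ha1, a prolyl hydroxylase, at -0.33, and Creb3l1, a transcription factor for collagen genes in bone, at -0.17, with adjusted p of 0.268 or more.

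Of 11 tested genes for procollagen processing and cross-linking, 1 rose and 0 fell, and the median was -0.02. Lox, the lysyl oxidase that starts collagen and elastin cross-links, had -0.44, 0.10, 0.19 and 0.12 with E7386, against -1.16, -0.74, -1.02 and -0.92 with vehicle. Every E7386 array was higher, and the rise was 0.95 (SE 0.16, adjusted p = 0.0358, limma), or 1.93-fold. The call was kept without E7386 replicate 1 and lost in the other 7 such fits, with adjusted p of 0.0631 to 0.118. Loxl1, a paralog that acts on elastin, was at -0.56 (adjusted p = 0.0822, limma), Pcolce, an enhancer of procollagen cleavage, at -0.24, and Adamts14, a procollagen protease, at 0.43.

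Of 9 tested collagen receptors 0 were called, with a median of -0.11. The members with the smallest p were Mrc2, which takes up collagen fragments, at -0.37, the discoidin receptor Ddr2 at -0.23, Adgrg1, which binds type III collagen, at -0.20, and the leukocyte receptor Lair1 at -0.14, with adjusted p of 0.281 or more. Of 15 tested fibril-associated proteoglycans and glycoproteins 0 were called, with a median of 0.07. Kera and Lum, small proteoglycans that space fibrils, were at -0.47 and -0.50, and Ogn, of the same family, and Comp, a cartilage and tendon glycoprotein, were at 0.19 and 0.20, with adjusted p of 0.183 or more.

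**Figure D5:**
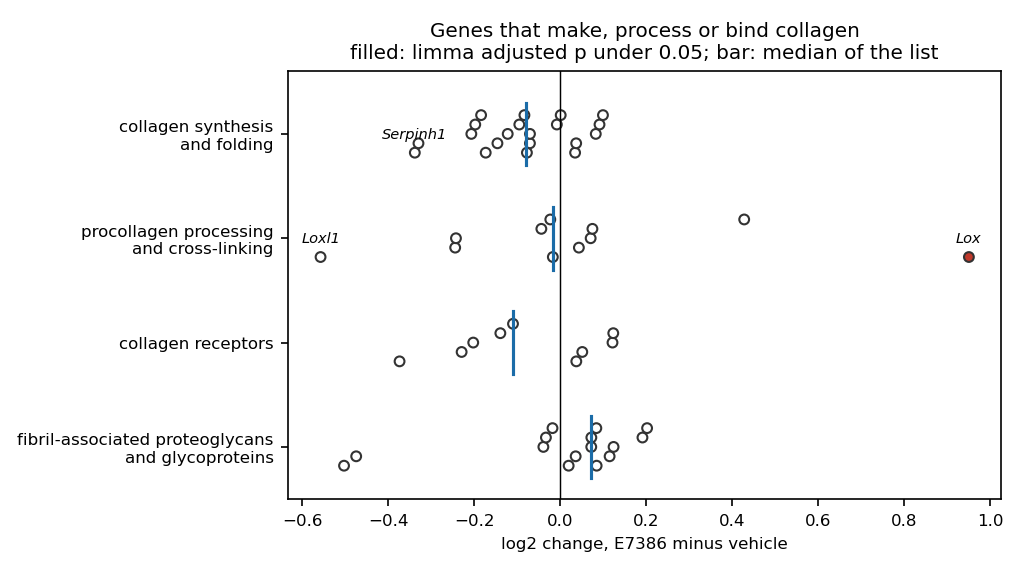
Log2 change of genes that make, process or bind collagen, E7386 minus vehicle (x axis), by list (y axis), with a bar at each list's median and filled points past an adjusted p of 0.05. Lox at 0.95 is the filled point, and the medians lie between -0.11 and 0.07.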

How the data were processed

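Per the labels' protocols, 50 ng of total RNA per sample was turned into Cy3-labelled cRNA for 1-colour Agilent arrays. The authors deposited scanner intensities from Feature Extraction. Its version is 11.5.1.1 per the file headers, while the submitters' processing notes name version 11. The authors' deposited value table holds log2 values, and its columns share 1 set of sorted values with a median of 5.312; its scale was found from the scanner values, and it served as an alternative.

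From the processed signal, spots with a non-uniformity or population outlier mark were removed, log2 values were scaled to the 75th percentile of each array, and spots of a probe were averaged. Of 55681 probes for mouse transcripts, 27509 were named through RefSeq accessions (GRCm38.p6). Coordinates are those of RefSeq promoter windows. The test was limma's (version 3.58.1, R 4.3.3; lmFit, then eBayes), checked on simulated data and adjusted over all genes tested. The number of arrays limits the precision.

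Members, classes, lists and the naming rule were chosen with earlier results of these data known. All members may be named; values on every array are given for called collagens, for collagens with separate groups and a change of at least 0.5, for the 3 smallest p of each of 5 classes and for 8 fixed chains, and the 4 smallest p of each matrix list are named. Beyond that rule, Col8a2, Serpinh1, Lox and Acta2 are given on every array, chosen after their values were seen. Prom1, Bmp4, Rspo3, Corin, Des, Thy1 and Plin4 are named, also chosen after their values were seen. Alternatives were the normalization, the authors' values, detection filters, probe choice, marked spots, variance model, array weights, a replicate block and leaving out each array; chosen after seeing the data were normexp (offset 50) on median signals, removal of non-uniform spots only, and leaving out the 3 arrays with the lowest muscle signal.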

Additional observations from a re-analysis of the deposited data

Results flagged for a closer look

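In 2 of 76 groups of 4 arrays, over the 38 tested collagens, 1 array lay far from the other 3, where chance gives about 1 group in 20. Col13a1 had -4.83 on E7386 replicate 2, below the other E7386 arrays at -4.26 to -4.15. Col6a3 had 2.89 on vehicle replicate 4, below the other vehicle arrays at 3.44 to 3.54, and Col1a1, Col1a2 and Col3a1 also had their lowest vehicle value on that array.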

How the results depend on the processing

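Over 21 alternatives, 27 of the 38 tested collagens kept their sign, the called Col4a1, Col4a4 and Col5a2 among them. No class median moved by more than the within-group SD of the class's median signal on each array. That SD was 0.37 for FACIT and 0.16 for basement membrane genes, against median changes of -0.12 and -0.02. It was 0.21 for fibrillar and 0.31 for type VI genes, against -0.20 and -0.21. For all of these classes a change of sign would stay within it. For epithelial genes it was 0.21, against 0.22. The medians ran from -0.27 to -0.15 for fibrillar, -0.09 to 0.13 for basement membrane, -0.19 to 0.0011 for FACIT and 0.10 to 0.28 for epithelial genes. These ranges also count narrower classes read with the main processing, which are not among the 21. They were type IV chains alone, at 0.13, and Col7a1 with Col17a1, at 0.10. The count of called collagens was 1 without a detection filter (Col4a1), 0 with the replicate block and 0 without the 3 arrays of lowest muscle signal, against 3. Fibrillar calls went to 0 with array medians, no filter, the block or without those 3 arrays, against 1. Basement membrane calls were 1 with array medians, no filter or probes averaged and 0 with the block or without those 3 arrays, against 2. Groups did not overlap for 16 collagens (42.1%) without those 3 arrays, where 2 E7386 arrays meet 3 vehicle arrays and 36% of all tested genes separate, against 6 (15.8%) with all arrays, where 10.4% do. Leaving out 1 array gave 0 to 2 called collagens, 0 fibrillar, 0 to 2 basement membrane, and 6 to 12 without overlap, where 12.1% to 16.3% of all tested genes separate. Over all genes, 287 were called, against 155 without a filter, 48 with the block, 47 without those 3 arrays and 84 to 251 with 1 array left out, which also leaves fewer samples.

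Whether replicate numbers pair the arrays is not known from the labels. Deviations of same-numbered arrays correlated at 0.49, -0.17, 0.29 and 0.18. Those of arrays with different numbers correlated at -0.49 to 0.38. Such correlations cannot settle how the samples were taken. The replicate block given above fits same-numbered arrays as pairs, but whether the samples were paired was not tested. Changes of uncalled genes turned sign as follows. Col28a1, at 0.04, was -0.0653 with quantile normalization, -0.0342 with array medians, -0.0672 with the authors' deposited values and -0.0605 without the 3 arrays. Col4a6, at -0.01, was 0.0311 with probes averaged, 0.0356 with array weights and 0.0746 without the 3 arrays. Col17a1, at -0.03, was 0.0316 with array weights and 0.15 without the 3 arrays. With normexp, Col11a2 was 0.0687, Col4a3 0.0095, Col15a1 0.0556, Col9a1 0.12 and Col10a1 0.14. Without the 3 arrays, Col18a1 was 0.0485 and Col9a1 0.0194. With 1 array left out the range was -0.40 to 0.11 for Col10a1, -0.0662 to 0.0258 for Col15a1, -0.11 to 0.15 for Col17a1, -0.0998 to 0.0497 for Col18a1, -0.19 to 0.24 for Col28a1, -0.11 to 0.068 for Col4a6, -0.0009 to 0.20 for Col5a3 and -0.16 to 0.0124 for Col6a1. The cause was not tested. Normexp on mean signals was not run, since the files read here held median signals. Genes dimmer than the filter, 5 of the collagens, could not be compared at this signal.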
